A study of Mus musculus with 16 samples.

Results

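The semaphorins, ephrins, Slits and netrins are the classical ligands that steer growing axons, and the plexins, neuropilins, Eph receptors, Robo receptors and Unc5 receptors are the proteins that read them. Their expression was examined in mouse brain tumours and in normal brain. Members were all genes whose platform symbol begins with Sema3 to Sema7, Plxn, Epha or Ephb with a number, Efna, Efnb, Ntn or Unc5, or is Nrp1, Nrp2, Slit1 to Slit3 or Robo1 to Robo4. A member was measured where a probe was detected (detection p-value under 0.05) on at least 3 of the 16 arrays, and its probe with the highest mean stood for it. The platform holds 68 such genes and 50 of them were measured, among 11755 genes measured in all. Among the 18 that were not, Efnb2 was detected on 2 arrays, Ephb3 on 1, and Efna2, Epha1, Epha8, Epha10, Plxna1, Plxna3, Plxna4, Sema3c, Sema3d, Sema3g, Sema4c, Sema6c, Slit1, Unc5d, Unc5cl and Unc50 on 0. Unc5cl and Unc50 match the symbol pattern only and do not encode netrin receptors.

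Tumours arose in mice that carry an inducible Cre recombinase and were taken when the animals showed neurological signs. Total RNA of 8 tumours, 5 dorsal and 3 ventral control brain samples from control mice was hybridised to Illumina bead arrays, 1 array for each sample. The study's design text gives 10 tumours, and arrays of 8 were available here. The study's title names tumour suppressor knockout, but the sources used here do not give the deleted genes, the genotype of the control mice or the age and sex of any animal. The labels call the tumours independent tissues without a brain region, and the controls biological replicates of a region. Tumours are numbered 1 to 8 here by the letter order of their labels.

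Guidance ligands attract or repel the tip of a growing axon by acting on receptors that control the actin and microtubule skeleton. Secreted class 3 semaphorins act through neuropilin and plexin complexes, membrane-bound semaphorins act on plexins directly, ephrins signal by cell contact to Eph receptors, Slits repel through Robo receptors, and netrins attract through Dcc and repel through Unc5 receptors. In adult brain many of these proteins stay on at synapses, and several are also used by glial progenitors and blood vessels.

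All levels below are log2 signals after background correction and quantile normalization, and all differences are in log2 units with the standard error of the limma contrast. Adjusted p-values come from limma with Benjamini-Hochberg adjustment over the 11755 genes, and the threshold for passing was 0.05. Levels of different genes come from different probes and are not compared. The arrays detected 38.8% to 45.1% of 45281 probes. Dorsal controls 4 and 5 stood apart from dorsal controls 1 to 3: the mean level of 6 striatal neuron markers was 10.86 and 11.58 in them and 6.49 to 6.66 in the others, and that of 3 cortical neuron markers was 8.61 and 6.45 against 9.12 to 9.28. Tumours 6 and 7 correlated with each other across genes at r = 0.983, above the 0.963 of the next pair of tumours, and the sources used here do not say whether they came from different animals. Among marker lists, all 7 measured neuronal genes fell in the tumours against the mean of both control regions, with list means of 6.98 to 10.47 in tumours, 11.64 to 12.88 in dorsal and 11.92 to 12.12 in ventral controls. Of 8 oligodendrocyte progenitor genes 7 rose (8.28 to 11.34 in tumours, 7.40 to 7.93 in dorsal and 8.14 to 8.27 in ventral controls), as did all 4 cell division genes and 4 of 6 microglia and macrophage genes, while 4 of 6 mature oligodendrocyte genes and 5 of 7 astrocyte genes fell. Of 8 endothelial genes 1 rose and 1 fell, and of 7 pericyte and fibroblast genes 0 passed. Against that mean regional neuron markers fell too, 2 of 3 cortical, 5 of 6 striatal and 4 of 6 diencephalon and brainstem genes (1 of these rose). These counts depended on the region. Cortical genes fell for 3 of 3 against dorsal and for 0 against ventral control, and striatal genes for 4 and 1 of 6. Of the 6 diencephalon and brainstem genes 4 fell against ventral control, while against dorsal control 1 fell and 2 rose. Emx1, Pmch and Hcrt were detected in none of the tumours, but Emx1 was also detected in 0 ventral and Hcrt in 0 dorsal controls. These samples are whole tissue, so fewer cells of a type and less RNA per cell cannot be told apart in any result below, and the part of these cell type differences in the results was not tested.

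Guidance genes were more often lower than higher in the tumours. Against the mean of both control regions 23 of the 50 genes fell (46%) and 6 rose (12%), where 26.7% of all genes fell and 27.3% rose. The median difference was -0.43 over the 50 genes and 0.0052 over all genes. A fall of at least 2-fold was found for 14 of the 50 (28%, against 13.6% of all genes) and a rise of at least 2-fold for 2 (4%, against 12.5%). Among ligands 14 of 27 fell and 5 rose, and among receptors 9 of 23 fell and 1 rose. Against dorsal control alone 18 genes fell (24.2% of all genes did) and 7 rose (26%), and against ventral control alone 17 fell (21.1% of all genes) and 5 rose (19.6%). Without dorsal controls 4 and 5 the counts against the mean of both regions were 24 lower and 6 higher, and without either tumour 6 or tumour 7 they were 23 lower and 7 higher. The detection filter bears on these counts. The probes used for Sema3e, Plxnc1, Efna3, Efnb3, Slit3 and Robo2, 6 of the genes that fell, were detected on fewer than 3 tumours. They were kept only because controls detected them, and those of Efna4, Epha2 and Ephb4 were detected in tumours alone. A further probe of Robo2 was detected on all 16 arrays and a further probe of Slit3 on 15. In all, 29 of the 50 passed (58%, against 54% of all genes). On chips 1 and 3, which carried every group, the sign of all 29 differences was kept when a chip was taken alone.

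**Figure D1:**
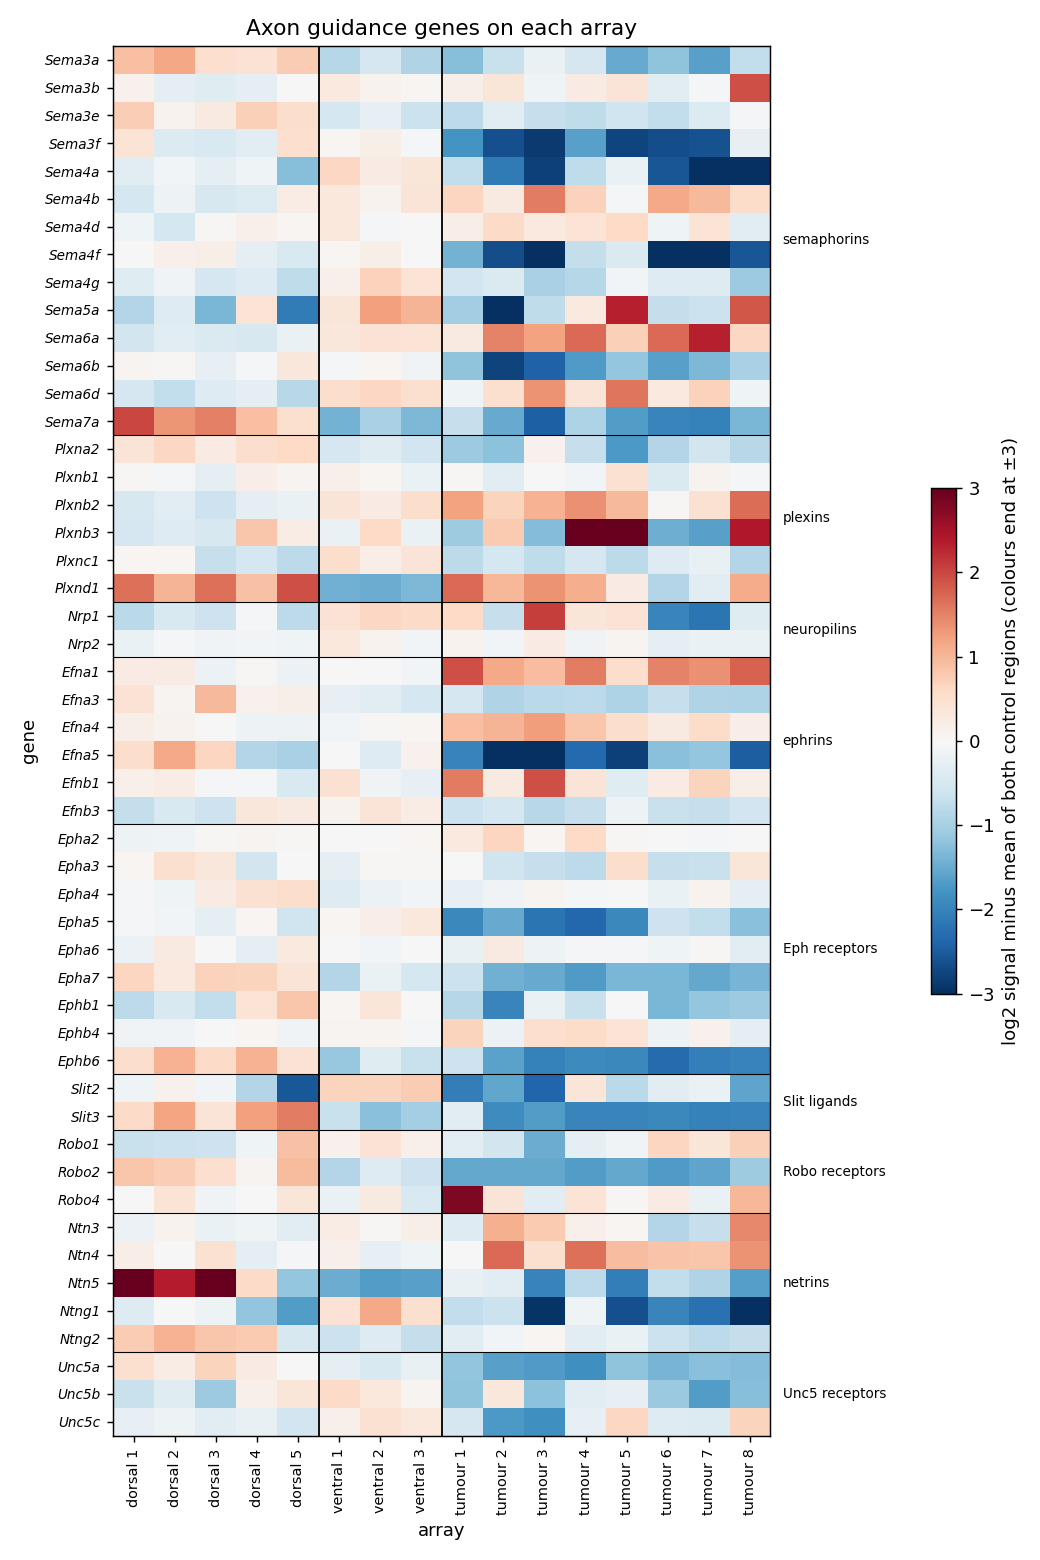
Log2 signal of each of the 50 measured guidance genes (vertical axis, grouped by family) on each of the 16 arrays (horizontal axis), as the difference from the mean of the dorsal and ventral group means. Blue cells, which stand for lower signal, fill the tumour columns for genes such as Sema3f, Efna5, Epha5, Robo2 and Unc5a, and red cells, for higher signal, those of Efna1 and Efna4.

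The 2 control regions differ from each other in many of these genes, so the genes that passed in the same direction against each region separately were taken as the core of the comparison. They were 4 genes that rose, Efna1, Sema6a, Ntn4 and Efna4 (17.2% of all genes met this criterion), and 10 that fell, Sema4f, Efna5, Sema3f, Sema4a, Ephb6, Sema6b, Epha5, Robo2, Unc5a and Epha7 (15.7% of all genes). Of the 50 genes, 0 passed in opposite directions against the 2 regions (0.349% of all genes did). The tumour levels of Efna1 and Efna4 lay above every control array (10.6% of all genes did so), and those of Sema6b, Efna5, Epha5, Robo2 and Unc5a below every control array (10.1%). The probe used for Efna4 entered through the tumours and that used for Robo2 through the controls, the groups where each is high. Their separation is therefore a description.

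**Figure D2:**
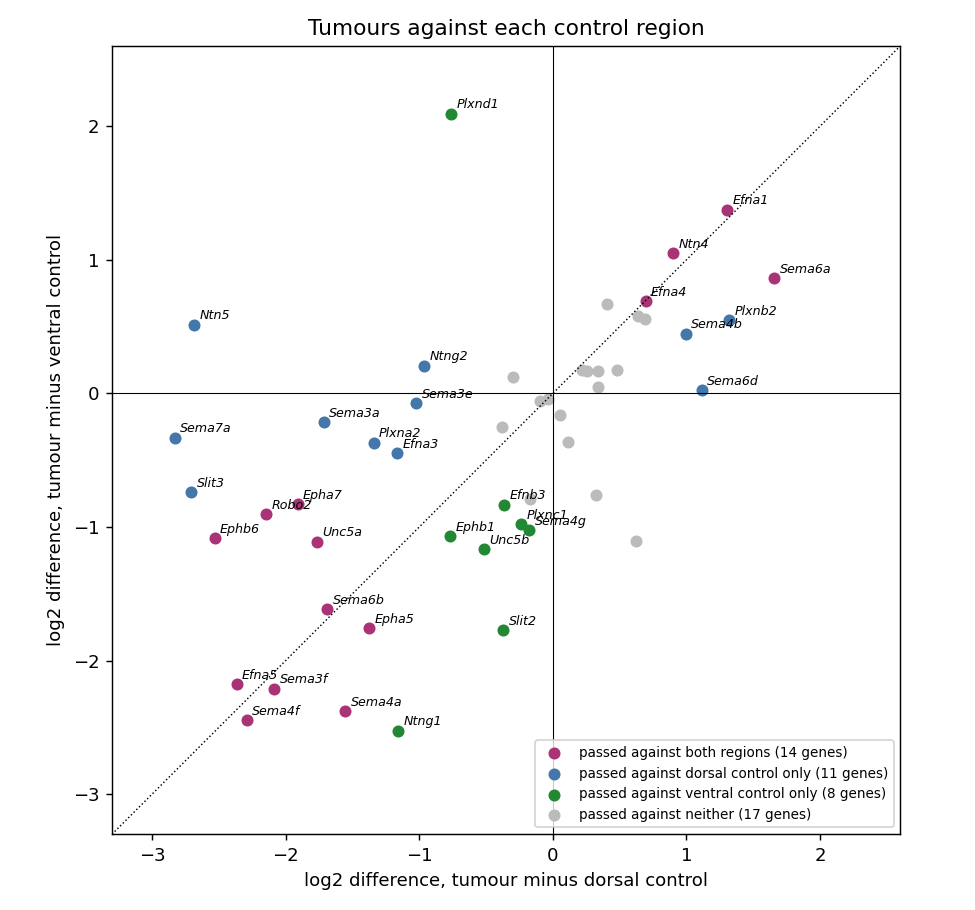
Each point is 1 of the 50 genes, placed by its log2 difference between tumours and dorsal control (horizontal axis) and between tumours and ventral control (vertical axis), and the dotted line marks equal differences. The 4 genes that passed upwards against both regions lie at the upper right and the 10 that passed downwards at the lower left; Plxnd1 and Ntn5 lie far from the line.

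The ephrins split in 2 directions. Ephrin-A proteins are tethered to the membrane by a lipid anchor and bind mainly EphA receptors, and ephrin-B proteins span the membrane and bind mainly EphB receptors. Against the mean of both regions Efna1 and Efna4 rose, Efna3, Efna5 and Efnb3 fell, and Efnb1 did not pass (0.61 ± 0.28, adjusted p = 0.0817). Efna1, Efna3 and Efna4 lie next to each other in that order on chromosome 3, with no other protein-coding gene between them in the RefSeq table. The promoters of these neighbours, 250 bases before and 50 after the start of transcription, are shown because the genes changed in different directions. They are the first promoter listed for each gene, from RefSeq on build GRCm38.p6, minus strand, 5′ to 3′, at chr3:89280902-89281201 for Efna1, chr3:89322890-89323189 for Efna3 and chr3:89337979-89338278 for Efna4. Capitals mark the letters GGGCGG, the GC box that SP1 binds, or CCGCCC, the same box on the other strand.
Efna1: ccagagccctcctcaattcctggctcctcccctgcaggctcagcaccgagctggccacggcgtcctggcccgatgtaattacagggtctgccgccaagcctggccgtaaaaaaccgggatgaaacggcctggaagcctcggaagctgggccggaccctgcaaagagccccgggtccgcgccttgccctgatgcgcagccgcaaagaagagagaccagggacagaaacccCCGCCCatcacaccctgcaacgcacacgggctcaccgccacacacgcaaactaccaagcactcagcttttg
Efna3: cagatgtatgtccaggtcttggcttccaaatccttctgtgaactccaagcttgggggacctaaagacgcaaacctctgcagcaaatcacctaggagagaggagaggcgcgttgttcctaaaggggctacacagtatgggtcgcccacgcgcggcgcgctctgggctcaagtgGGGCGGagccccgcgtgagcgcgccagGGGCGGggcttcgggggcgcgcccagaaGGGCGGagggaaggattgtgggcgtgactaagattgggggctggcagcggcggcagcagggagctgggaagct
Efna4: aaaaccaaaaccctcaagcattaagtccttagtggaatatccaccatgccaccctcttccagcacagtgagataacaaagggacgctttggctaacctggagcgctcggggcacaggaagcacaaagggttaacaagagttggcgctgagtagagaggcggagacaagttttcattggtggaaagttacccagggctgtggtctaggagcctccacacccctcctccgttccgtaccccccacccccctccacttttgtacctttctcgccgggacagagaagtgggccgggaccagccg
The window of Efna1 holds 1 GC box and that of Efna3 holds 3, and these letters are not in the window of Efna4. CG dinucleotides numbered 20, 22 and 11 in the same order, where the median was 7 over 27025 mouse promoters and 21 over the 46 guidance genes found in the table. A GC box was present in 35.9% of the 27025 promoters and in 32 of the 46 (69.6%). The 27025 include genes that were not measured on these arrays, while the 46 were all measured, so the 2 sets are not alike.

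Efna1 signal was 5.34, 5.33, 4.90, 5.13 and 4.90 in dorsal controls 1 to 5, 5.06, 5.08 and 5.00 in the ventral controls, and from 5.61 to 7.02 with a median of 6.51 in the tumours. Every tumour lay above every control. The rise was 1.34 ± 0.18, adjusted p = 1.2e-05, 1.30 ± 0.20, adjusted p = 5.78e-05 against dorsal and 1.37 ± 0.24, adjusted p = 0.000275 against ventral control. Efna4, its neighbour, read 4.72, 4.64, 4.54, 4.39 and 4.38 in dorsal and 4.45, 4.57 and 4.59 in ventral controls, none of which was a detected signal, and from 4.73 to 5.78 with a median of 5.21 in tumours, where 7 of 8 were detected. The tumours again lay above all controls without overlap. Because no control detected Efna4, its rise is a bound, at least 1.26-fold higher (measured means of 5.23 in tumours, 4.53 in dorsal and 4.53 in ventral controls, adjusted p = 0.000964). The call of Efna4 against ventral control was lost without ventral control 1 (adjusted p = 0.0517).

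Efna3 lies between them and went the other way. The probe used for Efna3 entered through the controls and that used for Efna4 through the tumours, the groups where each is high. The opposite directions of these neighbours are therefore a description. Its signal was 5.76, 5.39, 6.30, 5.46 and 5.51 in dorsal controls, 5.08, 5.02 and 4.79 in ventral controls and from 4.39 to 4.81 with a median of 4.47 in tumours, with detection on 1 of 8 tumours. It fell against the mean of both regions (-0.81 ± 0.13, adjusted p = 7.86e-05) and against dorsal control (-1.17 ± 0.15, adjusted p = 7.08e-06), while the difference from ventral control did not pass (-0.45 ± 0.17, adjusted p = 0.0506). Efna5, an ephrin known for its part in ordering the retinal map, had the largest fall of the ephrins. It read 10.60, 11.21, 10.72, 9.20 and 9.10 in dorsal controls, 10.05, 9.69 and 10.20 in ventral controls and from 6.97 to 8.91 with a median of 7.68 in tumours. No tumour reached the lowest control, and the difference was -2.27 ± 0.36, adjusted p = 6.37e-05. A further, dim Efna5 probe detected on 3 arrays fell by 0.33 on the log2 scale. Efnb3, a midline barrier ligand for corticospinal axons, fell against the mean of both regions (-0.60 ± 0.16, adjusted p = 0.0055), with dorsal controls 4 and 5 at 5.67 and 5.62 and dorsal controls 1 to 3 at 4.63 to 4.89. Its difference from dorsal control did not pass (-0.37).

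**Figure D3:**
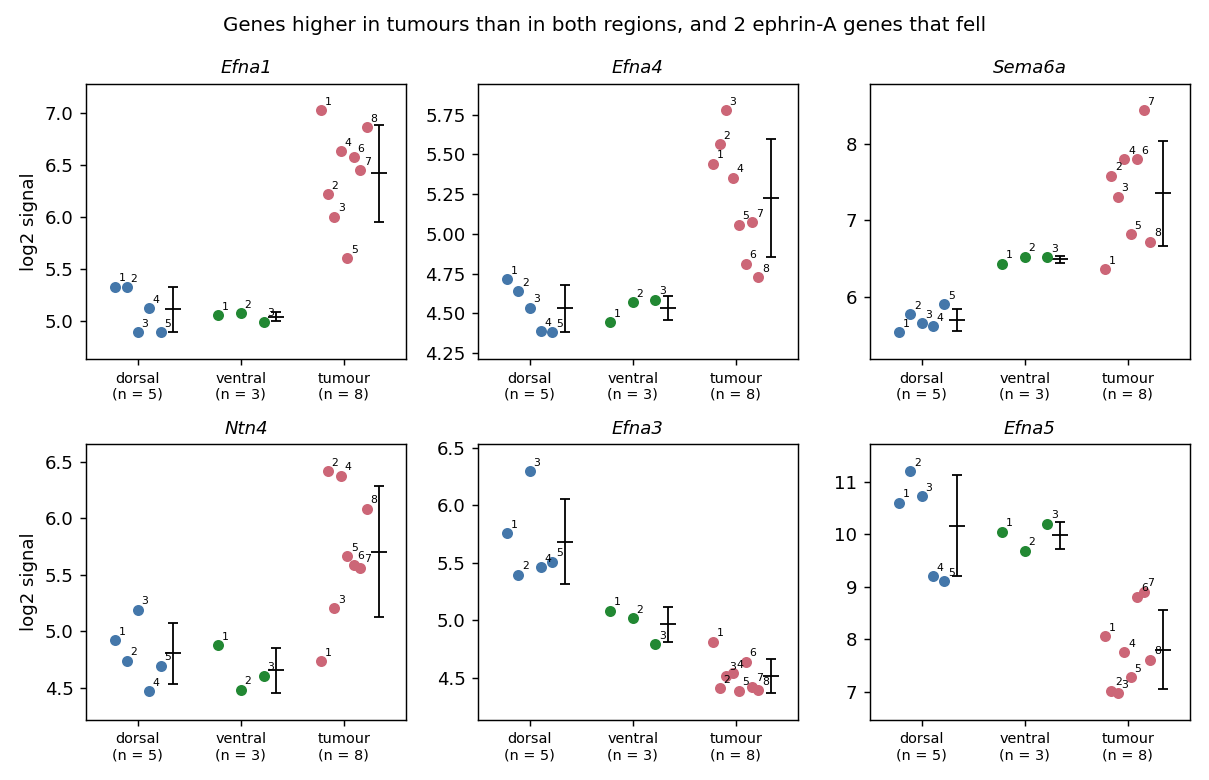
Log2 signal of 6 genes on each array (points, numbered by replicate, 1 panel for each gene), with the mean and SD of each group as a bar (5 dorsal controls, 3 ventral controls, 8 tumours). All tumour points of Efna1 and Efna4 lie above all control points, those of Efna5 lie below, and Sema6a, Ntn4 and Efna3 overlap with at least 1 control.

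None of the 9 measured Eph receptors rose, and 4 fell. Epha7 had the smallest adjusted p of the family. It read 6.96, 6.62, 7.01, 7.00 and 6.71 in dorsal controls, 5.44, 6.11 and 5.79 in ventral controls and from 4.63 to 5.67 with a median of 4.91 in tumours. The dorsal controls were highest, the ventral controls lay between, and tumour 1 alone of the tumours lay above the lowest ventral control. The difference was -1.37 ± 0.15, adjusted p = 1.19e-06, and a further Epha7 probe gave -1.59. Epha5, like Epha7 a receptor for ephrin-A ligands, read 8.28, 8.22, 8.01, 8.37 and 7.70 in dorsal controls, 8.37, 8.50 and 8.62 in ventral controls and from 5.95 to 7.69 with a median of 6.59 in tumours (-1.57 ± 0.24, adjusted p = 4.71e-05). The ranges of the control regions adjoined and all tumours lay below both; tumours 6 and 7, at 7.69 and 7.56, came closest. Ephb6, which lacks kinase activity, read 7.39, 7.90, 7.44, 7.90 and 7.31 in dorsal controls, 5.72, 6.50 and 6.19 in ventral controls and from 4.55 to 6.24 with a median of 4.90 in tumours, with detection on 5 of 8. Only tumour 1 reached the ventral range. The difference was -1.81 ± 0.21, adjusted p = 3.18e-06, and the call against ventral control was lost without ventral control 2 (adjusted p = 0.0508). Ephb1, a receptor for ephrin-B ligands, fell against the mean of both regions (-0.92 ± 0.29, adjusted p = 0.0148); its call against ventral control (-1.07) was lost in 7 of 16 fits that left out 1 array, those without tumours 2, 6, 7 or 8 or any ventral control. Against dorsal control Ephb1 did not pass (-0.77). The other 5 receptors, Epha2, Epha3, Epha4, Epha6 and Ephb4, differed by -0.32 to 0.21 from the mean of both regions and did not pass.

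Of 14 measured semaphorins 8 fell and 2 rose against the mean of both regions. Secreted class 3 members fell or did not pass: Sema3a, Sema3e and Sema3f fell, and Sema3b differed by 0.33 ± 0.25. Sema3f, which repels axons that carry neuropilin 2, read 8.69, 7.87, 7.81, 7.93 and 8.77 in dorsal controls, 8.33, 8.46 and 8.22 in ventral controls and from 5.41 to 8.04 with a median of 5.65 in tumours. Tumour 8, at 8.04, lay within the control range, and the other 7 tumours, at 6.65 or less, lay below it. The difference was -2.15 ± 0.33, adjusted p = 5.24e-05, and a further probe gave -2.25. Sema3a, the classical growth cone collapsing factor, differed by -0.97 ± 0.21, adjusted p = 0.000921 and Sema3e, a ligand that binds Plxnd1, by -0.55 ± 0.14, adjusted p = 0.00308. Both were lower in ventral than in dorsal control, and neither passed against ventral control (-0.22 and -0.07).

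The membrane-bound semaphorins moved in both directions, and the 2 largest falls were in class 4. Sema4f read 8.77, 8.93, 8.94, 8.51 and 8.32 in dorsal controls, 8.84, 8.95 and 8.77 in ventral controls and from 4.67 to 8.34 with a median of 6.16 in tumours (-2.37 ± 0.47, adjusted p = 0.000533). Tumour 5, at 8.34, lay above dorsal control 5, and tumour 4, at 8.06, lay just below the controls. Tumours 3, 6 and 7, at 4.67 to 5.32, were lowest. Sema4a read 9.92, 10.16, 9.98, 10.12 and 8.96 in dorsal controls, 10.86, 10.49 and 10.61 in ventral controls and from 6.78 to 10.04 with a median of 7.90 in tumours (-1.97 ± 0.44, adjusted p = 0.00135). Tumours 1, 4 and 5, at 9.50, 9.47 and 10.04, lay above dorsal control 5, and within chip 3, which held that control, the difference from dorsal control was 0.027. Sema6b, a class 6 semaphorin that acts on plexin-A4, was lower in every tumour. It read 8.69, 8.66, 8.37, 8.58 and 8.95 in dorsal controls, 8.57, 8.66 and 8.50 in ventral controls and from 5.84 to 7.63 with a median of 7.12 in tumours. Controls spanned less than 1 unit, no tumour reached them, and the difference was -1.65 ± 0.23, adjusted p = 1.89e-05. Sema7a and Sema4g fell as well (-1.58 ± 0.26, adjusted p = 8.75e-05 and -0.60 ± 0.16, adjusted p = 0.00398). Sema4g did not pass against dorsal control (-0.18). Its call against the mean of both regions was lost with the 8 controls as 1 group (adjusted p = 0.0535).

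**Figure D4:**
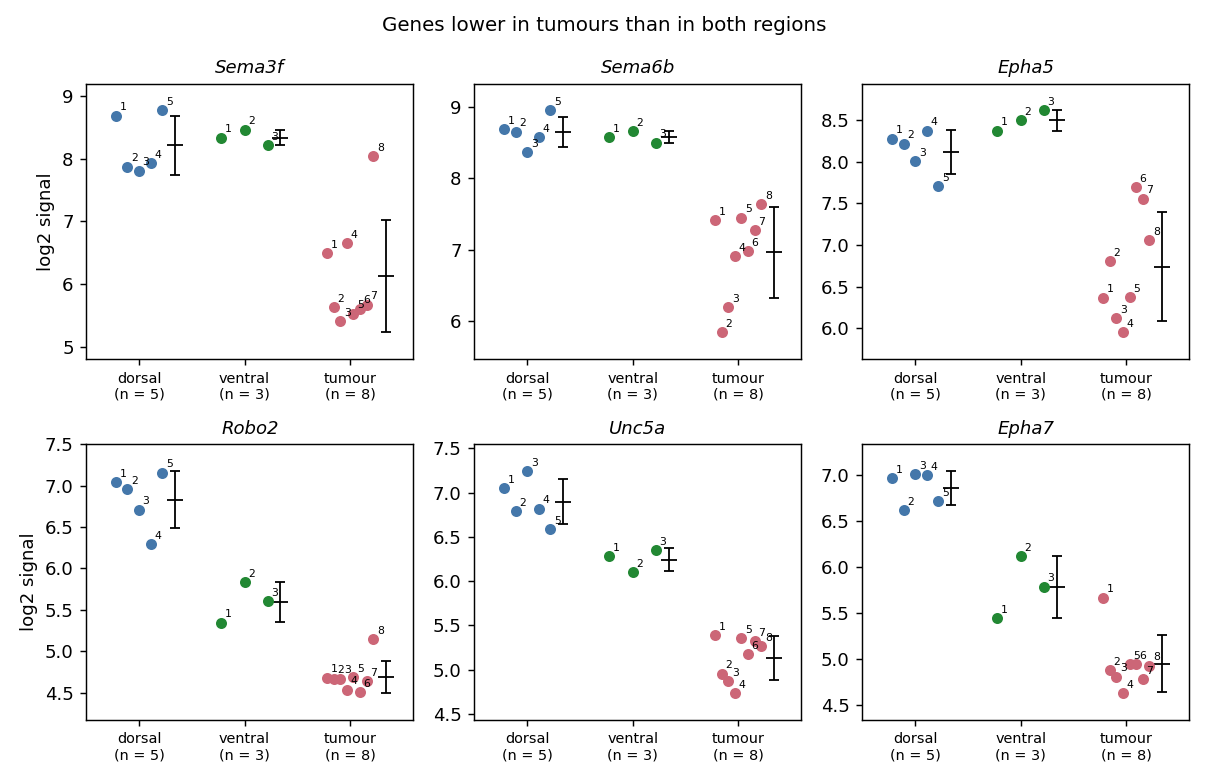
Log2 signal of 6 genes that were lower in tumours than in each control region, by array (points, numbered by replicate), with the mean and SD of each group as a bar (5 dorsal controls, 3 ventral controls, 8 tumours). In Sema6b, Epha5, Robo2 and Unc5a every tumour lies below every control, and in Sema3f tumour 8 lies among the controls.

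Sema6a and Sema4b were the semaphorins that rose. Sema6a, a class 6 semaphorin that binds plexin-A2 and plexin-A4, read 5.54, 5.77, 5.65, 5.62 and 5.90 in dorsal controls, 6.43, 6.52 and 6.52 in ventral controls and from 6.36 to 8.44 with a median of 7.44 in tumours. Every tumour was above every dorsal control, and tumour 1, at 6.36, was below the ventral controls. The rise was 1.26 ± 0.24, adjusted p = 0.000418, with 1.66 ± 0.27, adjusted p = 0.000108 against dorsal and 0.86 ± 0.33, adjusted p = 0.0446 against ventral control. The ventral call was lost in 13 of 16 fits that left out 1 array, all but those without tumours 1, 5 or 8, and without dorsal controls 4 and 5 (adjusted p = 0.0626). It was also lost with the mean of all kept probes (0.37, adjusted p = 0.223), without background correction (0.48, adjusted p = 0.0633), with an offset of 50 (adjusted p = 0.0520) and without the detection filter (adjusted p = 0.0738). The other 3 Sema6a probes gave rises of 0.29 to 0.46, of which 1 passed. Sema4b rose by 0.72 ± 0.20, adjusted p = 0.00667, with a difference from ventral control that did not pass (0.45 ± 0.27). Sema6d missed the threshold against the mean of both regions (0.57 ± 0.23, adjusted p = 0.0504) and rose against dorsal control (1.11 ± 0.26, adjusted p = 0.00216). Sema4d and Sema5a did not pass (0.25 ± 0.15 and -0.24 ± 0.65).

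Among the plexins, the semaphorin receptors, Plxnb2 rose and Plxna2 and Plxnc1 fell. Plxnb2, which receives class 4 semaphorins, read 6.54, 6.70, 6.40, 6.73 and 6.82 in dorsal controls, 7.41, 7.28 and 7.54 in ventral controls and from 7.06 to 8.70 with a median of 8.04 in tumours. All tumours lay above all dorsal controls, and tumours 6 and 7 overlapped with or lay below the ventral controls. The rise was 0.93 ± 0.20, adjusted p = 0.000883, and it did not pass against ventral control alone (0.55 ± 0.26, adjusted p = 0.112). Plxna2, the co-receptor of class 3 and a receptor of class 6 semaphorins, fell (-0.86 ± 0.20, adjusted p = 0.00193), as did Plxnc1, the receptor of Sema7a (-0.61 ± 0.15, adjusted p = 0.00288). Plxna2 did not pass against ventral control (-0.37), nor Plxnc1 against dorsal control (-0.24). Plxnb1 and Plxnb3 did not pass (-0.04 ± 0.13 and 0.62 ± 0.80). Of the neuropilins, the ligand-binding partners of class 3 semaphorins, Nrp2 was near background, with detection on 0 of 5 dorsal controls, 1 of 3 ventral controls and 2 of 8 tumours, and differed by -0.06 ± 0.10, adjusted p = 0.668; within chip 3 that difference was 0.14. Nrp1 differed by -0.22 ± 0.49, adjusted p = 0.727.

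Slit and Robo genes fell or did not pass. Robo2, a receptor for Slit ligands, read 7.05, 6.96, 6.71, 6.29 and 7.16 in dorsal controls, 5.35, 5.83 and 5.60 in ventral controls and from 4.50 to 5.15 with a median of 4.67 in tumours. The probe used was detected on all 8 controls and 1 tumour, no tumour reached a control, and the difference was -1.52 ± 0.14, adjusted p = 1.99e-07. The size depended on the probe: of 3 further Robo2 probes 2 fell, by 0.46 and 0.58, and 1 did not pass (-0.15 ± 0.12). That last probe was detected on all 16 arrays. Against ventral control these 3 probes gave 0.12, -0.12 and -0.05 and did not pass. With the mean of all its probes Robo2 no longer passed against ventral control (-0.24, adjusted p = 0.219). Slit3 read 7.02, 7.64, 6.84, 7.69 and 8.00 in dorsal controls, 5.79, 5.20 and 5.43 in ventral controls and from 4.42 to 6.15 with a median of 4.51 in tumours. Tumour 1, at 6.15, was the only tumour with a signal detected by this probe, and it lay above all ventral controls. A further Slit3 probe was detected on 15 arrays. Slit3 fell against the mean of both regions (-1.72 ± 0.25, adjusted p = 2.41e-05) and did not pass against ventral control (-0.74 ± 0.33), and its 2 further probes did not pass (-0.20 and -0.35). Slit2 had an adjusted p at the threshold (-1.07 ± 0.44, adjusted p = 0.0487), which was lost in 12 of 16 fits that left out 1 array, all but those without dorsal control 5 or tumours 4, 6 or 7, and with median scaling (adjusted p = 0.118), the 8 controls as 1 group (adjusted p = 0.127), no detection filter (adjusted p = 0.0879) or probes without a single gene name kept (adjusted p = 0.0510). Its signal was 5.35 in dorsal control 5 and 7.02 to 8.02 in the other dorsal controls, and it did not pass against dorsal control (-0.37). Of 3 further Slit2 probes 1 passed (-1.09), also against dorsal (-0.79) and ventral control (-1.39). The other 2 did not pass against the mean of both regions (-0.05 and -0.17). Robo1 (-0.13 ± 0.31) did not pass.

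Ntn4 was the netrin that rose. It encodes a netrin of basement membranes and read 4.92, 4.74, 5.19, 4.47 and 4.70 in dorsal controls, 4.88, 4.48 and 4.61 in ventral controls and from 4.74 to 6.42 with a median of 5.63 in tumours. Detection was on 3 of 8 controls and 7 of 8 tumours; tumour 1, at 4.74, stayed at the level of the controls. The rise was 0.98 ± 0.22, adjusted p = 0.00148, and a further probe gave 0.85. The call against ventral control was lost without ventral control 2 (adjusted p = 0.0501), and that against dorsal control without dorsal controls 4 and 5 (adjusted p = 0.0619). Ntng1, a netrin-G protein anchored to axon membranes, fell against the mean of both regions (-1.84 ± 0.46, adjusted p = 0.00285). Tumour levels ranged from 5.33 to 8.64 and overlapped with the dorsal controls, and the difference from dorsal control did not pass (-1.16 ± 0.51). Of 3 further Ntng1 probes 2 fell against the mean of both regions (-1.19 and -1.44) and 1 did not pass (-0.30). The probe at -1.19 also fell against dorsal control (-0.64) and was higher in ventral than in dorsal control (1.11). Ntn3, Ntn5 and Ntng2 did not pass against the mean of both regions (0.19, -1.08 and -0.38).

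Unc5a, a receptor through which netrin repels axons, had the smallest adjusted p of all 50 genes. It read 7.05, 6.79, 7.24, 6.82 and 6.58 in dorsal controls, 6.28, 6.10 and 6.35 in ventral controls and from 4.73 to 5.39 with a median of 5.22 in tumours. The highest tumour stayed below the lowest control, and the difference was -1.44 ± 0.13, adjusted p = 1.87e-07. A further, dim probe of Unc5a did not pass (-0.12 ± 0.10). Unc5b fell against the mean of both regions (-0.84 ± 0.29, adjusted p = 0.0217), a call lost without ventral control 1 (adjusted p = 0.0550), without dorsal controls 4 and 5 (adjusted p = 0.0770), with array weights (-0.52, adjusted p = 0.117) and with median scaling (-0.62, adjusted p = 0.0831). Against dorsal control Unc5b did not pass (-0.51). Unc5c did not pass (-0.48 ± 0.32).

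In normal brain 15 of the guidance genes passed between the control regions. The spread behind these p-values was estimated over all 16 arrays, tumours included. The SD among tumours exceeded that of both control groups for 76.2% of all genes. Ventral levels were lower for 13 of the 50 (26%, against 4.3% of all genes) and higher for 2 (4%, against 5.16%). This split changed with the fit: in the 8 control arrays alone 13 were lower and 9 higher (9.98% and 13.8% of all genes), and with array weights 14 were lower and 14 higher (16% and 19.6% of all genes). Every ventral array lay below every dorsal array for 12 genes (13% of all genes did) and above for 11 (17.5%). Cortical neuron markers were lower in ventral tissue for 3 of 3 genes, with list means of 4.75 to 4.97 in ventral and 6.45 to 9.28 in dorsal controls, and 5 of 6 diencephalon and brainstem markers were higher (10.76 to 11.48 in ventral, 5.69 to 6.67 in dorsal controls). The 13 lower genes became 12 without dorsal controls 4 and 5, 8 with the chip as a block, and 7 to 13 when 1 array was left out, with the lowest counts without ventral control 1 or 3.

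Sema7a, a lipid-anchored semaphorin, and Plxnd1, the receptor of Sema3e, showed the regional difference without overlap. Sema7a read 11.19, 10.51, 10.71, 10.10 and 9.67 in dorsal and 7.77, 8.21 and 7.85 in ventral controls, a difference of -2.49 ± 0.37, adjusted p = 0.000341. The tumours, from 6.74 to 8.49 with a median of 7.60, lay below all dorsal controls and did not pass against ventral control (-0.33 ± 0.35). Plxnd1 read 9.20, 8.55, 9.17, 8.42 and 9.47 in dorsal and 6.10, 6.04 and 6.18 in ventral controls (-2.86 ± 0.47, adjusted p = 0.000909). The tumours, from 6.66 to 9.23 with a median of 8.58, all lay above the ventral controls, with a rise of 2.09 ± 0.44, adjusted p = 0.00124, and did not pass against dorsal control (-0.76 ± 0.37, adjusted p = 0.0969). Its 2 further probes were also lower in ventral tissue (-2.58 and -1.21). Slit3 (-1.97 ± 0.36, adjusted p = 0.00186) and Sema3a (-1.50 ± 0.30, adjusted p = 0.00353) were lower in ventral tissue with no overlap. The further probes of Slit3 did not pass between the regions (-0.11 and -0.55), while that of Sema7a did (-1.74).

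Ntn5 had the largest regional difference, -3.20 ± 0.78, adjusted p = 0.0145, and the largest spread within a region. It read 10.41, 9.57, 10.28, 7.80 and 6.06 in dorsal controls and 5.74, 5.54 and 5.59 in ventral controls, so that dorsal controls 4 and 5, the samples with high striatal markers, were lower than dorsal controls 1 to 3. The call was lost when any 1 ventral control was left out (adjusted p up to 0.0644) and with the chip as a block. Ntng2 (-1.17), Ephb6 (-1.45), Robo2 (-1.24), Epha7 (-1.08), Sema3e (-0.95), Plxna2 (-0.97), Efna3 (-0.72) and Unc5a (-0.65) were the other genes lower in ventral tissue. Of these, Ntng2, Plxna2, Efna3 and Unc5a were lost with the chip as a block, and the last 3 also with median scaling. Leaving out 1 array ended the call of Plxna2 in 11 of 16 fits, those without any control or without tumour 4, 6 or 8, and of Unc5a in 7, those without any ventral control or without dorsal control 1, 2, 3 or 4. Efna3 was lost without dorsal control 1 or any ventral control, Ntng2 without ventral control 1 or 3, and Ephb6 without ventral control 1. Further probes of Robo2 gave -1.16 and -0.92, which passed between the regions, and -0.19, which did not. The further probe of Epha7 passed (-0.82) and that of Unc5a did not (-0.07).

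Sema4g (0.85 ± 0.22, adjusted p = 0.024) and Plxnc1 (0.74 ± 0.22, adjusted p = 0.0413) were higher in ventral tissue. Sema4g read 5.54, 5.81, 5.40, 5.53 and 5.14 in dorsal and 6.07, 6.60 and 6.33 in ventral controls, and Plxnc1 read 5.36, 5.36, 4.60, 4.80 and 4.52 in dorsal and 5.82, 5.50 and 5.68 in ventral controls. Neither overlapped between regions. Both calls were lost without dorsal controls 4 and 5 (differences of 0.75 and 0.56, adjusted p = 0.0890 and 0.180). The calls of both were also lost without dorsal control 3 or without ventral control 2 or 3, and that of Plxnc1 without dorsal control 4 or 5, tumour 4 or ventral control 1. Plxnc1 was lost as well with the chip as a block (adjusted p = 0.0709), with median scaling (adjusted p = 0.0502), without background correction (0.20, adjusted p = 0.0646) and with the replicate block (adjusted p = 0.0827, and 0.0819 in the same 6 arrays without the block). Sema3e and its receptor Plxnd1 were both lower in ventral tissue.

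**Figure D5:**
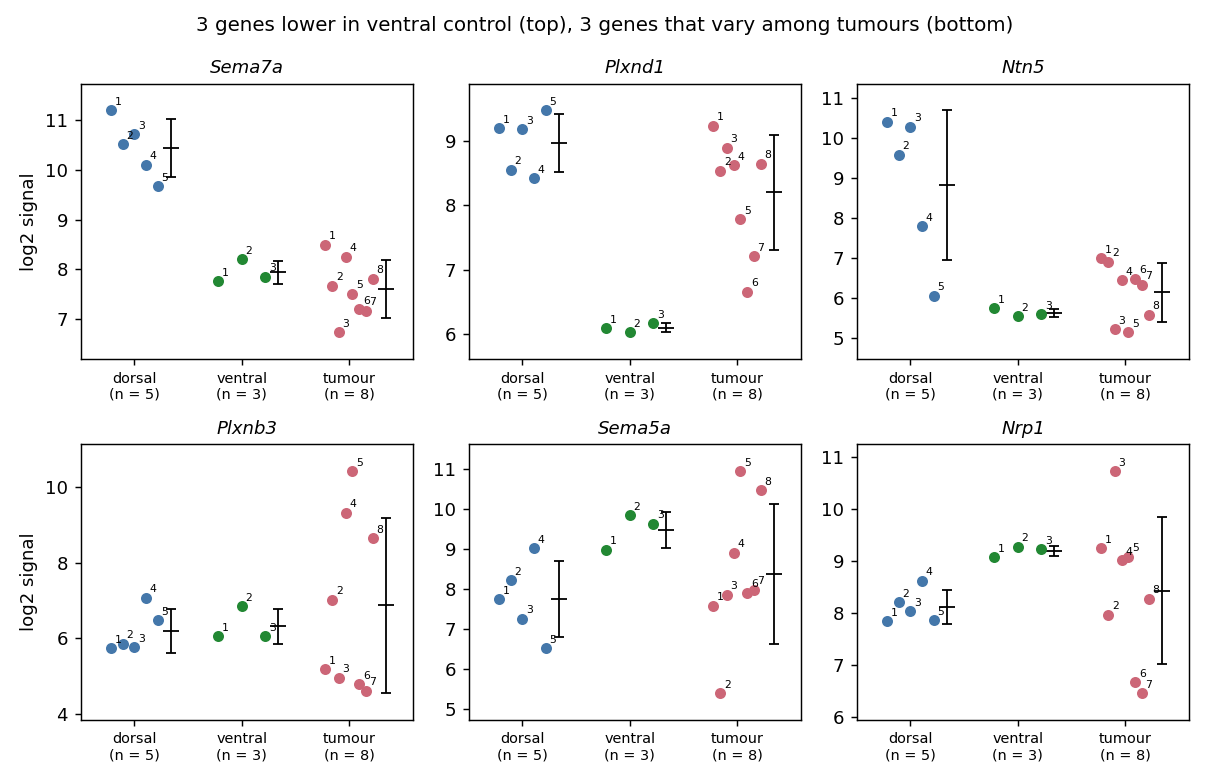
Log2 signal of 6 genes on each array (points, numbered by replicate), with the mean and SD of each group as a bar (5 dorsal controls, 3 ventral controls, 8 tumours). Sema7a, Plxnd1 and Ntn5 in the top panels are lower in ventral control, with dorsal controls 4 and 5 low in Ntn5, and Plxnb3, Sema5a and Nrp1 in the bottom panels spread over 4.28 to 5.81 units among tumours.

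Several genes that did not pass varied widely from tumour to tumour. The SD among tumours exceeded that of both control groups for 34 of the 50 genes (68%), where 76.2% of all genes did so. Plxnb3, a plexin of the oligodendrocyte lineage, spanned 5.81 units among tumours, the widest range of the 50. It was 10.43 in tumour 5, 9.33 in tumour 4, 8.66 in tumour 8, 7.03 in tumour 2, and 4.62 to 5.19 in the other 4, against 5.75 to 7.08 in all controls. The mean level of 6 mature oligodendrocyte markers was 12.23 in tumour 5 and 11.55 in tumour 4, but 8.09 in tumour 8, and 6.79 to 9.64 in the rest. The part of these cells in the Plxnb3 level was not tested.

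Sema5a, a semaphorin with thrombospondin repeats, spanned 5.55 units among tumours, from 5.40 in tumour 2 to 10.95 in tumour 5. Its controls also spread, from 6.52 to 9.84. Nrp1, the receptor subunit for Sema3a and for vascular growth factors, spanned 4.28 units, from 6.45 and 6.67 in tumours 7 and 6 to 10.73 in tumour 3. The controls lay between 7.84 and 9.27. Robo4, a Robo receptor of endothelial cells, was 9.91 in tumour 1, 8.12 in tumour 8 and 6.77 to 7.52 in the other tumours. Tumour 1 also had the highest mean level of 8 endothelial markers, 8.66, where the other tumours had 6.50 to 7.14; the part of blood vessels in the Robo4 level was not tested.

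Other genes of the pathway, from lists chosen by function, passed in both directions. Of 13 measured surface partners 3 rose and 6 fell against the mean of both regions, where 27.3% of all genes rose and 26.7% fell. Neo1, a receptor related to Dcc, rose by 1.08 ± 0.29, and Gpc1, a heparan sulphate proteoglycan that binds Slits, by 0.90 ± 0.14. Draxin, a secreted antagonist of netrin signalling, was detected in no control and in 7 of 8 tumours, and was at least 1.62-fold higher (measured means of 5.59 in tumours, 4.29 in dorsal and 4.32 in ventral controls, adjusted p = 0.000941). The probe used for Draxin entered through the tumours, the group where it is high, so that its rise is a description. Cntn2 (-2.81 ± 0.35), Chl1 (-2.02 ± 0.27), both cell adhesion molecules of axons, and Flrt1 (-1.79 ± 0.21) had the largest falls. Dcc, the attractive netrin receptor, did not pass (-0.43 ± 0.21). Of 42 measured cytoplasmic effectors 12 rose and 16 fell (27.3% and 26.7% of all genes did), with a median of -0.01. Vav2, an exchange factor downstream of Eph receptors, rose by 2.01 ± 0.22, Dpysl3, a collapsin response mediator, by 1.93 ± 0.21, and Cdc42, a small GTPase that controls actin, by 1.30 ± 0.15. Kalrn (-3.63 ± 0.27) and Ngef, the exchange factor that Epha4 engages (-2.85 ± 0.27), fell most.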

How the data were processed

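The authors deposited, for each of 16 Illumina arrays, a bead intensity and a detection p-value of 45281 probes, without normalization or background subtraction per the file headers. A table of log2 values for 38563 probes that the authors deposited was used as an alternative; the sources used here do not give its method, and it matched the values computed here at r of at least 0.999997 on each array. In R 4.3.3 with limma 3.58.1, neqc corrected the background from the detection p-values, added an offset of 16, applied quantile normalization and took log2. A probe had to be detected (p-value under 0.05) on 3 or more arrays. Of the 23131 probes left, 18142 had 1 gene name in the platform table, updated through Entrez IDs, and 4989 did not and entered only an alternative. The probe with the highest mean stood for each of 11755 genes.

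A limma model with 3 group means over all 16 arrays compared tumours with both control regions at equal weight, with dorsal control and with ventral control, and ventral with dorsal control, adjusted by Benjamini-Hochberg over all genes. Where a group detected a gene on 0 arrays, each array's lowest detected signal replaced it where higher, and the fold is given as a bound. The p-values measure the spread between these samples, pooled over the 3 groups, so that tumours also enter the comparison of the control regions. The number of arrays and signals near background limit the precision. The 16 arrays lay on 3 chips. Genes are described where they passed against both regions, had the smallest adjusted p of their family, or were among the 5 largest regional differences each way; others account for their family, and the genes that varied among tumours were chosen after their values were seen. The members and lists were chosen with earlier results of these data known. The procedure was tested on simulated data. Promoter letters were searched on both strands in the first RefSeq promoter of each gene. The gene whose regulation drives the Cre recombinase is not reported here.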

Additional observations from a re-analysis of the deposited data

Results flagged for a closer look

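In 10 of 100 groups examined (50 genes, in dorsal controls and in tumours) the highest or lowest array lay far from all others of its group, where chance gives about 1 in 20. In tumour 1 the highest log2 signals were those of Epha7 at 5.669 (next tumour 4.946), Ephb6 at 6.243 (5.252), Robo4 at 9.907 (8.117) and Slit3 at 6.147 (4.774). In tumour 8 they were those of Robo2 at 5.145 (4.684), Sema3b at 6.861 (5.304) and Sema3f at 8.036 (6.647). Efnb3 was highest in tumour 5, at 5.178 (4.82). Dorsal control 5 was lowest for Ntng2, at 5.023 (next dorsal control 6.267), and for Sema4a, at 8.955 (9.918).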

How the results depend on the processing

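The counts of guidance genes against the mean of both regions and against dorsal control stayed within 1.5 times under every alternative run. When 1 array was left out they ranged from 6 to 7 higher and 21 to 25 lower (mean of both regions), 7 to 8 and 18 to 21 (dorsal), 3 to 5 and 13 to 19 (ventral), and 0 to 3 and 7 to 13 (ventral minus dorsal control). The 5 genes higher than in ventral control became 3 when detection on all arrays of a group was required, where fewer genes are tested. The 2 genes higher in ventral than in dorsal control became 1 without background correction, 1 with the chip as a block, 1 without dorsal controls 4 and 5 (0 of the original genes), 14 with array weights, and 9 in the 8 control arrays alone; the 13 lower genes became 8 with the chip as a block. The cause was not tested. The last of these fits, and that of 6 control arrays named next, were chosen after seeing the data. A replicate block on controls 1 to 3 gave 15 higher and 15 lower (17.4% and 14.4% of all genes), and the same 6 arrays without the block 15 and 14 (18.7% and 15.2%). Deviations of same-numbered controls correlated at -0.05, 0.0049 and -0.03. These values cannot show whether same-numbered controls came from the same animal, which the sources used here do not say. Within chip 3 the sign turned for Nrp2 against the mean of both regions (0.14) and for Ntng2 (0.32) and Sema4a (0.027) against dorsal control. Median scaling moved the median difference of all genes to 0.15, 0.21, 0.11 and 0.09 in the 4 contrasts, with 9 guidance genes higher and 21 lower in the first. The array weights, the offset, the filters, the mean of all kept probes and the authors' deposited log2 values turned no sign of a gene that passed. Calls were lost, such as those of Unc5b, Sema6a, Slit2, Ephb1 and Robo2 in a tumour contrast, and of Plxna2 and Unc5a between the regions.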
